A study of Mus musculus with 9 samples.

Results

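The caveolin and cavin genes were followed in the forebrain of embryos with an intact or a heterozygously deleted *Npas3*. They were chosen by symbol, as the genes Cav1, Cav2, Cavin1, Cavin2 and Cavin3, which are 5 of the 55401 genes in the count table. All 5 passed the filter on low counts that left 17818 genes for testing. The WT group held 5 female embryos with both copies of *Npas3*, numbered 5, 15, 16, 41 and 43. The HET group held 4 female embryos with 1 deleted copy (Npas3+/-), numbered 5, 6, 7 and 24. The deletion is constitutive, so every cell of a HET embryo carries it, and the embryos were littermates on C57BL/6J from crosses with at least 1 HET parent. Tissue was taken at embryonic day 16 to 17 (E16 to E17), poly(A) RNA was sequenced, and the litter of each embryo is not given. P-values set differences or relations against the spread between these embryos and treat the embryos as independent. Likeness within a litter could not be taken into account.

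The labels give the cell type as astrocytes, although the tissue is bulk forebrain. The 7 markers of neurons summed to 5390 to 5837 CPM (counts scaled to a common library size) in WT and 5347 to 6067 CPM in HET embryos. The 8 markers of astroglia summed to 676 to 867 CPM and 679 to 777 CPM. The samples were therefore read as mixed tissue, in which fewer cells of a type and less RNA per cell cannot be told apart. Total counts were 42640218 to 62830060 per embryo, and each printed CPM was scaled by edgeR's TMM method. The deleted gene itself, *Npas3*, had a WT mean of 36.2 ± 4.18 CPM (SD, n = 5) against a HET mean of 29.5 ± 3.09 CPM (SD, n = 4). This was a log2 fold change of −0.30 (SE 0.10; adjusted p = 0.877, edgeR's quasi-likelihood test), and the groups overlapped because HET 7 had 34.1 CPM. *Ttr*, a gene of the choroid plexus, was at 2127 to 2631 CPM in WT 15, WT 16 and WT 41 and at 467 CPM in HET 24. It was between 0.770 and 11.7 CPM in the other embryos. WT 15, WT 16 and WT 41 therefore stood apart from the rest in the tissue they carried, and results were also given without them.

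Caveolae are small flask-shaped pits of the plasma membrane. Caveolins are membrane proteins that insert into the inner leaflet and form the core of the pit. Cavins are soluble proteins that assemble as a coat on its cytoplasmic face. Cav1 is required for caveolae outside of muscle and Cav2 forms mixed oligomers with it. Cavin1 is required for caveola formation, Cavin2 is linked to membrane shape, and Cavin3 binds protein kinase C and joins the coat through Cavin1. Caveolae are abundant in endothelial cells, smooth muscle cells, adipocytes and fibroblasts. They are kept sparse in the endothelium of the blood-brain barrier, where the lipid transporter Mfsd2a restrains them.

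Cav1 (ENSMUSG00000007655) spans 17306335 to 17341452 of chromosome 6 (plus strand, GRCm38). Cav2 (ENSMUSG00000000058) is its upstream neighbour on the same strand, from 17281185 to 17289115, with 17219 bases between them. Cavin1 (ENSMUSG00000004044) spans 100956733 to 100970887 of chromosome 11 (minus strand). Cavin2 (ENSMUSG00000045954) spans 51289126 to 51302960 of chromosome 1 (plus strand). Cavin3 (ENSMUSG00000037060) spans 105480083 to 105482300 of chromosome 7 (minus strand). Reads were counted over the exons of each gene. Exons of Cav1, Cav2, Cavin1 and Cavin2 are not overlapped by exons of another annotated gene. In Cavin3, 374 of 1662 exonic bases (22.5%) are overlapped on the opposite strand by Gm45667, and whether the counting used strand is not given in the sources used here. Gm45667 itself was listed with 0 to 4 counts per embryo, and how reads in the shared bases were assigned is a limit on the Cavin3 counts.

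Promoter sequences of 4 of the 5 genes, all except Cavin3, were in the RefSeq promoter table on GRCm38.p6. Those of Cav1 and Cav2 are shown because these neighbours varied together between embryos, as described below, and that of Cavin1 is shown beside them because its levels did not follow theirs. Each sequence is the 250 bases before the transcription start, written 5′ to 3′ on the strand of the gene. Capitals mark the E-box, CANNTG, a site bound by proteins of the basic helix-loop-helix family, to which NPAS3 belongs.
Cav1: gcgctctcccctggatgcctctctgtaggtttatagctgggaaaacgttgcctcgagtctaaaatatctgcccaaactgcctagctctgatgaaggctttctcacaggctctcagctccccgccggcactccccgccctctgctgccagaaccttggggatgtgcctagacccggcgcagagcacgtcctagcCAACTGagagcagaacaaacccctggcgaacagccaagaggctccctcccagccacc
Cav2: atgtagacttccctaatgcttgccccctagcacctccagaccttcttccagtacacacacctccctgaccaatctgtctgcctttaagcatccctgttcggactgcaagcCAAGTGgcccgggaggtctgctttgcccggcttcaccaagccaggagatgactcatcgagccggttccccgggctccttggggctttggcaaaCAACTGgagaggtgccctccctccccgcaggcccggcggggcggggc
Cavin1: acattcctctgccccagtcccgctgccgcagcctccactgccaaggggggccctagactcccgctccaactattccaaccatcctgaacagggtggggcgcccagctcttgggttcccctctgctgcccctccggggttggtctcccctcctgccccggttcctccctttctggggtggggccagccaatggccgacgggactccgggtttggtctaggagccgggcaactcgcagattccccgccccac
The windows are chr6:17306085-17306334 for Cav1, chr6:17280935-17281184 for Cav2, both on the plus strand, and chr11:100970616-100970865 on the minus strand for Cavin1. The first window of Cav1 held 1 E-box, from −57 to −52 relative to the start. The second window of Cav1, not shown, held 1 from −158 to −153 relative to its own start. Cav2 held 2, from −140 to −135 and from −47 to −42. Cavin1 and Cavin2 held none. An E-box on either strand was present in 66.2% of the 32851 promoter windows of this length. ACGTG, the core of sites bound by several relatives of NPAS3, was present on either strand in 16.6% of them. Among the 4 genes it was found in Cav1 from −68 to −64, outside its E-box. It lay on the strand opposite to the one printed, which reads CACGT there. A CACGTG site would count for both motifs. GGGCGG, the GC box, was present on either strand in 32.7% of windows. It was found in Cav1, Cav2 and Cavin1, in Cav2 and Cavin1 from −9 to −4. In Cav2 it lay on the printed strand, whereas in Cav1 and Cavin1 it lay on the opposite strand. The matches describe the letters in these windows and say nothing on binding.

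The caveolin and cavin genes were not called in HET forebrain by edgeR, and Cavin3 had the largest fold change of the 5. With edgeR's quasi-likelihood test and Benjamini-Hochberg adjustment over 17818 genes, none of the 5 passed the threshold of 0.05. The test called 25 genes in all, which is 0.14% of those tested (0.0281% higher and 0.112% lower in HET). With DESeq2, 1 of the 5 was called, which was Cavin3 as lower in HET, beside 0.296% of the 21632 genes with an adjusted p from DESeq2 that were called lower and 0.393% called in either direction. An unadjusted p under 0.05 in edgeR was given by 1 of the 5, again Cavin3, beside 5.42% of all tested genes, and 3.09% with a negative fold change. The fitted log2 fold changes were positive for both caveolins and negative for the 3 cavins, with a median of −0.02 beside −0.0046 over all tested genes. Only Cav1 and Cavin3 kept their sign in all 22 alternatives described below, and Cavin2 was positive in 12 of them.

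**Figure D1:**
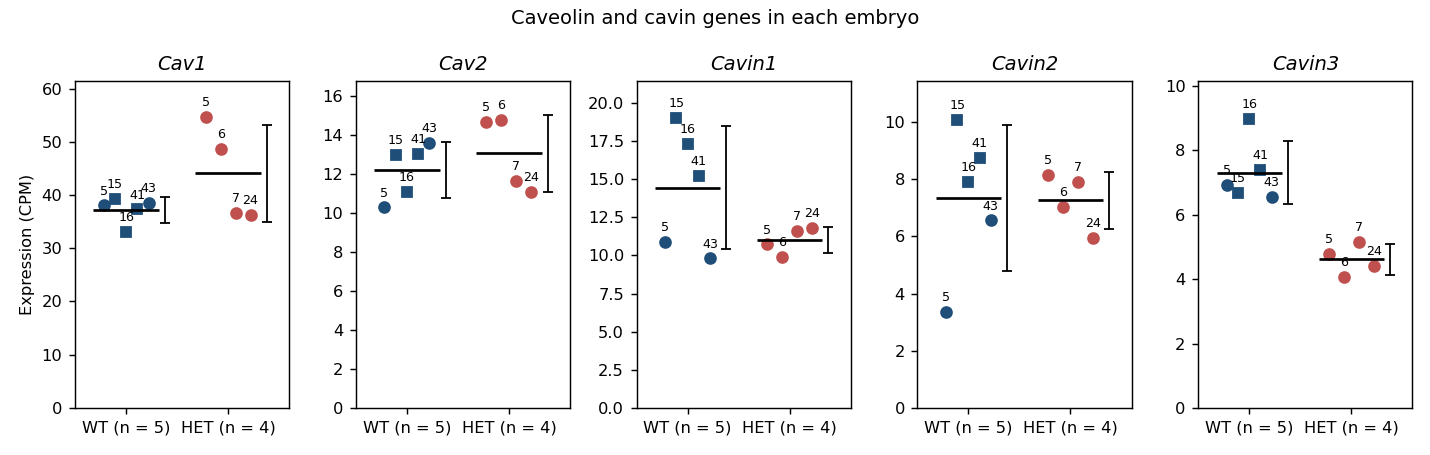
Expression of each gene in CPM (vertical axes, linear from 0) in 5 WT (blue) and 4 HET (red) embryos, each labelled with its number. Squares are WT 15, WT 16 and WT 41, horizontal lines are group means and bars are 1 SD. Cavin3 is the gene whose 4 HET embryos (4.08 to 5.17 CPM) all lie below its 5 WT embryos (6.56 to 8.98 CPM).

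Cav1, the principal caveolin outside of muscle, had 38.1 CPM in WT 5, 39.3 in WT 15, 33.0 in WT 16, 37.3 in WT 41 and 38.6 in WT 43. In HET embryos it had 54.8 CPM in HET 5, 48.6 in HET 6, 36.7 in HET 7 and 36.3 in HET 24. HET 5 and HET 6 were above every WT embryo, whereas HET 7 and HET 24 lay within the WT range. The WT mean was 37.3 ± 2.46 CPM (SD, n = 5) and the HET mean 44.1 ± 9.14 CPM (SD, n = 4). The log2 fold change was 0.24 (SE 0.12, 95% confidence interval −0.03 to 0.51), with an adjusted p of 0.911 in edgeR. The difference did not exceed the spread between embryos, and it rested on HET 5 and HET 6. Without WT 15, WT 16 and WT 41 the log2 fold change was 0.20.

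Cav2, the partner of Cav1, had 10.3 CPM in WT 5, 12.9 in WT 15, 11.1 in WT 16, 13.0 in WT 41 and 13.6 in WT 43. Its HET values were 14.7 CPM in HET 5, 14.8 in HET 6, 11.6 in HET 7 and 11.1 in HET 24. The same HET embryos, 5 and 6, were the highest of all 9, as for Cav1. The log2 fold change was 0.10 (SE 0.12, 95% confidence interval −0.18 to 0.37), with an adjusted p of 0.933 in edgeR, and it was 0.12 without WT 15, WT 16 and WT 41.

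Cavin1, the cavin on which the coat depends, had 10.9 CPM in WT 5, 19.0 in WT 15, 17.3 in WT 16, 15.2 in WT 41 and 9.80 in WT 43. It had 10.7 CPM in HET 5, 9.92 in HET 6, 11.6 in HET 7 and 11.8 in HET 24. WT 15, WT 16 and WT 41, the embryos with the most *Ttr*, were above all others, and the remaining WT embryos lay beside the HET embryos. The means were 14.4 ± 4.002 CPM (SD, n = 5) and 11.01 ± 0.860 CPM (SD, n = 4). The log2 fold change over all embryos was −0.39 (SE 0.19, 95% confidence interval −0.80 to 0.02), with an adjusted p of 0.911 in edgeR. Without WT 15, WT 16 and WT 41 it was 0.09, in the opposite direction.

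Cavin2 had 3.37 CPM in WT 5, 10.1 in WT 15, 7.92 in WT 16, 8.76 in WT 41 and 6.56 in WT 43. It had 8.14 CPM in HET 5, 7.03 in HET 6, 7.92 in HET 7 and 5.95 in HET 24. All HET values lay inside the WT range, which was wide because of WT 5. The means were 7.33 ± 2.56 CPM (SD, n = 5) and 7.26 ± 0.995 CPM (SD, n = 4). The log2 fold change was −0.02 (SE 0.26, 95% confidence interval −0.58 to 0.55), with an adjusted p of 0.995 in edgeR. It was 0.54 without WT 15, WT 16 and WT 41. The interval covers sizeable changes in both directions, which were not detectable with this spread.

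Cavin3, a cavin that binds protein kinase C, had 6.93 CPM in WT 5, 6.68 in WT 15, 8.98 in WT 16, 7.39 in WT 41 and 6.56 in WT 43. It had 4.78 CPM in HET 5, 4.08 in HET 6, 5.17 in HET 7 and 4.42 in HET 24. All HET embryos lay below all WT embryos, a separation that 1.07% of tested genes showed in this direction. The counts behind these values were 175 to 469 per embryo. The means were 7.31 ± 0.989 CPM (SD, n = 5) and 4.61 ± 0.470 CPM (SD, n = 4), so that the HET mean was 63.1% of the WT mean. The log2 fold change was −0.66 (SE 0.13, 95% confidence interval −0.95 to −0.38). The unadjusted p was 0.000301 and the adjusted p 0.122 in edgeR, whereas DESeq2 gave the same fold change with an adjusted p of 0.000348. The study singled out Cavin3 as changed in these same embryos, so its values are a description of them and not independent evidence.

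The fold change of Cavin3 kept its sign in all 22 alternatives that were fitted, between −0.72 and −0.53. Only DESeq2 called it, and the adjusted p of the other alternatives was above the threshold. Leaving out each embryo in turn gave −0.72 to −0.58, with an adjusted p in edgeR of 0.142 to 0.579. Without WT 15, WT 16 and WT 41 it was −0.55, with an unadjusted p of 0.00499 and an adjusted p of 0.693 in edgeR. It was −0.53 when only the 2 WT and 3 HET embryos below 100 CPM of *Ttr* were fitted. Cav1 stayed positive in all 22 alternatives (0.03 to 0.33), whereas Cav2, Cavin1 and Cavin2 changed sign in some of them.

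**Figure D2:**
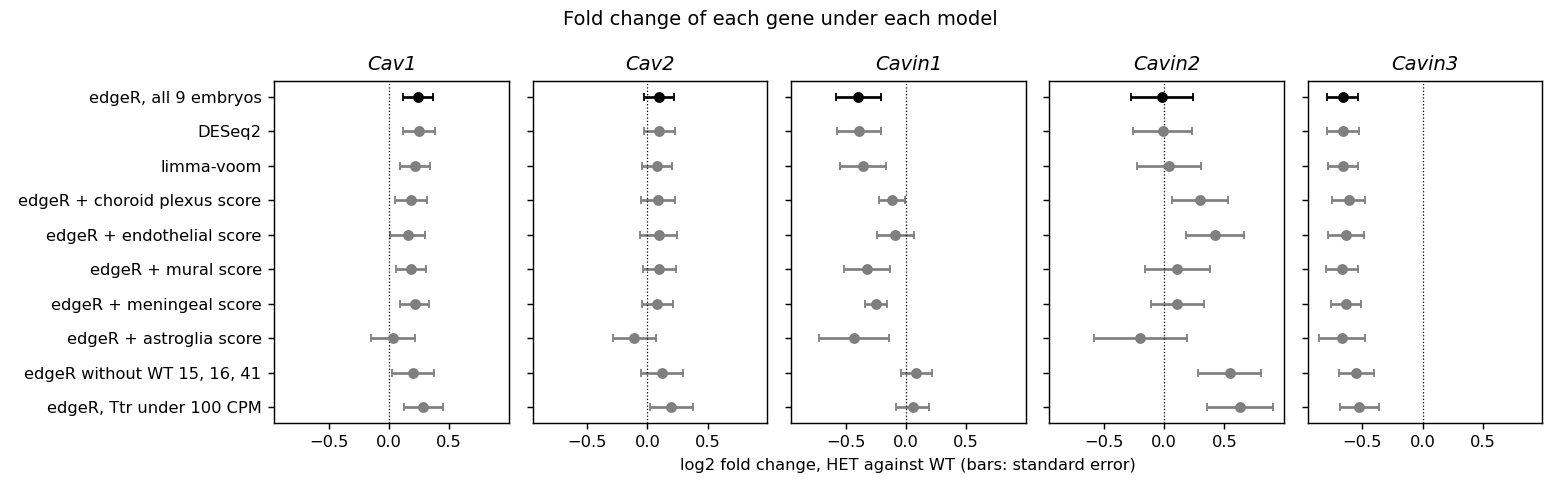
Log2 fold change of HET against WT (horizontal axes) for each gene under 10 models (rows), with 1 SE as bars and a dotted line at 0. Cavin3 stays between −0.67 and −0.53 in every row, whereas Cavin1 moves from −0.39 with all embryos to 0.09 without WT 15, WT 16 and WT 41.

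Cavin3 was next compared with the other members within the same embryos, by an exact two-sided permutation test of the difference of log2 CPM over the 126 splits of 9 embryos. The HET minus WT difference of Cavin3 was lower than that of Cav1 by 0.88 on the log2 scale (p = 0.00794, the smallest that 5 against 4 embryos allow; exact permutation test). It was lower than that of Cav2 by 0.75 (p = 0.00794, exact permutation test) and than that of Cavin2 by 0.72 (p = 0.0317, exact permutation test). Against Cavin1 the difference was 0.31 and did not pass (p = 0.159, exact permutation test). Adjusted over these 4 comparisons, the exact permutation p was 0.0159, 0.0159, 0.0423 and 0.159. Cavin3 was known to be low in HET when they were made. Leaving out WT 5, WT 16, WT 41, WT 43 or HET 6 raised the adjusted p against Cav1 and Cav2 to 0.0571 or 0.0714 in the exact permutation test. Against Cavin2, leaving out any embryo other than WT 15 raised it to 0.0714 to 0.143. With an embryo left out there are fewer splits, so the smallest possible p is larger than with all 9 embryos. That limit does not set every rise, because removals that leave the same number of splits gave different values. In the exact permutation test, the adjusted p against Cav1 and Cav2 was 0.0357 without HET 5, HET 7 or HET 24. It was 0.0714 without HET 6. Against Cavin2 it was 0.0286 without WT 15 and 0.0762 without any other WT embryo. Without HET 5, HET 6 or HET 7 it was 0.143, and without HET 24 it was 0.0714. These p-values thus depended in part on the embryo left out. The differences themselves kept their sign without each embryo, from −1.01 to −0.76 against Cav1, −0.86 to −0.63 against Cav2 and −0.89 to −0.48 against Cavin2. Against Cavin1 they were between −0.45 and −0.22, and leaving out WT 15 alone brought the adjusted exact permutation p to 0.0286. When only embryos below 100 CPM of *Ttr* were used (2 WT and 3 HET), no p under 0.1 was possible.

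Levels were compared between genes in CPM per kilobase of exon. Cav1 had the highest level over the 9 embryos, 11.7 ± 1.998 CPM per kilobase (SD, n = 9). Cav2 followed with 3.77 ± 0.488, Cavin3 with 3.68 ± 0.969, Cavin1 with 3.60 ± 0.948 and Cavin2 with 2.39 ± 0.625 CPM per kilobase (SD, n = 9). Cav1 exceeded Cav2 in 9 of 9 embryos, by 1.63 ± 0.15 on the log2 scale (SD; adjusted p = 0.00781, exact sign-flip permutation test, raw p = 0.00391, the smallest possible). Cavin1 exceeded Cavin2 in 9 of 9 embryos by 0.61 ± 0.40 (SD; adjusted p = 0.00781, exact sign-flip permutation test). The neighbours Cav2 and Cavin3, at a mean log2 difference of 0.07 ± 0.49, and Cavin3 and Cavin1, at 0.03 ± 0.32, did not differ beyond their spread per kilobase of exon (adjusted p = 0.805 for both, exact sign-flip permutation test).

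By genotype the order of the middle genes was not the same. In WT embryos Cavin3 was at 4.40 ± 0.595 and Cavin1 at 4.03 ± 1.12 CPM per kilobase (SD, n = 5), above Cav2 at 3.65 ± 0.427. In HET embryos Cav2 was at 3.91 ± 0.585 CPM per kilobase, above Cavin1 at 3.07 ± 0.240 and Cavin3 at 2.77 ± 0.283 (SD, n = 4). Cav1 remained first in both, with 10.8 ± 0.715 in WT and 12.8 ± 2.66 CPM per kilobase in HET embryos, and Cavin2 last, with 2.40 ± 0.837 and 2.38 ± 0.326. When coding length was used in place of exon length, Cavin1 took the third place and Cavin3 the fourth, and every pair of neighbours differed. On that scale Cav2 exceeded Cavin1 by 1.11, Cavin1 exceeded Cavin3 by 0.49 and Cavin3 exceeded Cavin2 by 0.44 in log2 (adjusted p = 0.00781, 0.0104 and 0.0391, exact sign-flip permutation test). The order of the middle genes thus depended on the length used.

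**Figure D3:**
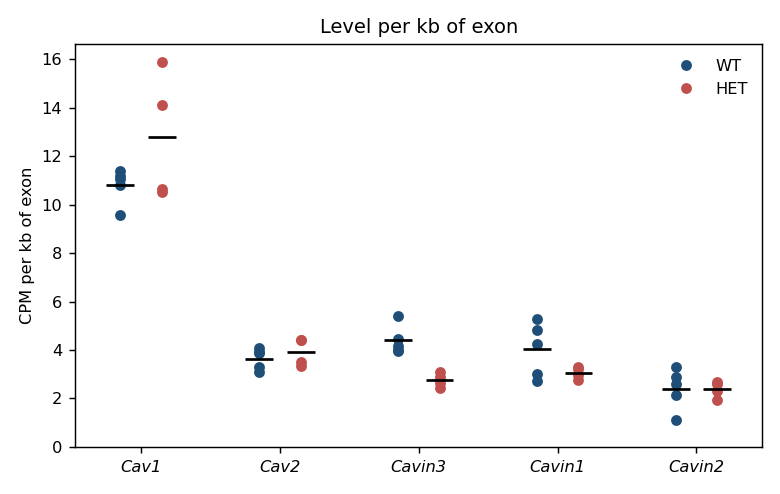
Level of each gene in CPM per kilobase of exon (vertical axis, linear from 0) in WT (blue) and HET (red) embryos, with group means as lines. Cav1 stands above the other 4 genes in every embryo, and HET embryos are below WT embryos for Cavin3.

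Over the 9 embryos the members did not vary as a single block. Pearson's r of log2 CPM was 0.77 between the neighbours Cav1 and Cav2, and 0.81 within the 6 embryos other than WT 15, WT 16 and WT 41. Between Cav1 and Cavin1, the core and coat proteins on which caveolae depend, it was −0.48 and −0.45. Cav1 and Cavin3 gave −0.62 and −0.44. Cav2 gave −0.23 and −0.68 with Cavin1, and −0.40 and −0.43 with Cavin3. With Cavin2 both caveolins were positive, Cav1 at 0.12 and 0.43 and Cav2 at 0.55 and 0.71. Cavin1 and Cavin3 gave 0.63 over all embryos and −0.17 within the 6, and Cavin1 and Cavin2 gave 0.53 and −0.07, so that these relations rested on the embryos with the most *Ttr*. These values describe 9 libraries whose genotype is part of the variation, and no p was computed for them.

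Each member was then read against the vessels of the brain. The endothelial list of 18 markers was detected in all embryos, among them Pecam1, Cdh5 and Cldn5, genes of endothelial junctions. It summed to 193 to 275 CPM in WT and 187 to 218 CPM in HET embryos. The mean log2 CPM of the list, called its score here, was 3.19 in WT and 3.01 in HET embryos, a difference of −0.18 (adjusted p = 0.540 over 8 marker lists, exact permutation test). No endothelial gene was called by edgeR, and 14 of 18 had a negative fold change, with a median of −0.17. An unadjusted p under 0.05 was given by 4 of the 18, all lower in HET, beside 3.09% of all tested genes that were lower. The mural list, which holds Rgs5 and Pdgfrb, genes of pericytes, summed to 137 to 176 CPM in WT and 147 to 152 CPM in HET embryos. Its score differed by −0.08 (adjusted p = 0.873, exact permutation test). The smooth muscle markers Acta2, Tagln, Myh11 and Cnn1 were each at most 0.765 CPM in every embryo, so that these markers of a caveola-rich cell type were low throughout.

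The meningeal list of 13 genes includes the collagen genes Col1a1 and Col1a2 and Dcn, a proteoglycan of fibroblasts. It summed to 89.8 CPM in WT 15, 71.9 in WT 16 and 74.0 in WT 41. It summed to 30.7 CPM in WT 5 and 22.6 in WT 43, and to 31.7 to 43.3 CPM in HET embryos. The embryos with the most *Ttr* were thus also those with the most meningeal RNA, and the same was true of Cavin1. The score differed by −0.18 between the groups (adjusted p = 0.898, exact permutation test). Of 12 meningeal genes tested, 11 had a negative fold change, with a median of −0.33, and none was called. The choroid plexus list varied more between embryos, with sums of 29.0 to 2978 CPM in WT and 40.2 to 555 CPM in HET embryos. Its score differed by −1.59 between the groups (adjusted p = 0.720, exact permutation test). With only the embryos below 100 CPM of *Ttr*, the difference was 0.65, in the opposite direction. Of its 12 genes, 9 had an unadjusted p under 0.05 in edgeR and were lower in HET, beside 3.09% of all tested genes. None was called, and no gene of that list was at 0 except Kl in WT 5.

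Cavin1 rose with the endothelial score between embryos. Pearson's r was 0.85 over 9 embryos (p = 0.00349, adjusted p = 0.0262 over 15 relations, exact permutation test). Spearman's rho was 0.87 (p = 0.00451, adjusted p = 0.0338, exact permutation test). Without WT 15 and WT 41, which lay farthest from the median score, r was 0.66 (p = 0.0673, exact permutation test). Within the 6 embryos other than WT 15, WT 16 and WT 41 it was 0.54 (p = 0.256, exact permutation test), so that the relation rests on the embryos that stood apart. With the meningeal score, Cavin1 had r = 0.90 and rho = 0.92 over 9 embryos (p = 0.000427 and 0.00131, adjusted p = 0.00641 and 0.0197, exact permutation test). Without WT 43 and WT 15, farthest from the median of that score, r was 0.91 (p = 0.00476, exact permutation test). WT 15, WT 16 and WT 41 had meningeal scores of 1.46 to 1.58 and the others −0.02 to 1.01. Within those other 6, Cavin1 had r = 0.79 and rho = 0.71 (p = 0.0583 and 0.136, adjusted p = 0.465 and 0.725, exact permutation test), so that the relation kept its direction and did not pass there. Cavin3 had r = 0.35 with the meningeal score over 9 embryos (adjusted p = 0.480) and −0.66 within the 6 (adjusted p = 0.568, exact permutation test).

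Cav1 did not follow the endothelial score upwards. Its r was −0.53 and its rho −0.50 over 9 embryos (p = 0.133 and 0.178, adjusted p = 0.353 and 0.444, exact permutation test). Without WT 15 and WT 41, r was −0.83 (p = 0.0137, exact permutation test), since HET 5 and HET 6 had the most Cav1 and the lowest endothelial scores, 2.94 and 2.88. For Cavin3 r was 0.54 and rho 0.63 (p = 0.141 and 0.0760, adjusted p = 0.353 and 0.285, exact permutation test). None of the 5 relations with the mural score passed (adjusted p of r from 0.418 to 0.860, exact permutation test). Whether the content of endothelial or meningeal cells took part in the levels of any member was not tested beyond these values and the fits below.

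**Figure D4:**
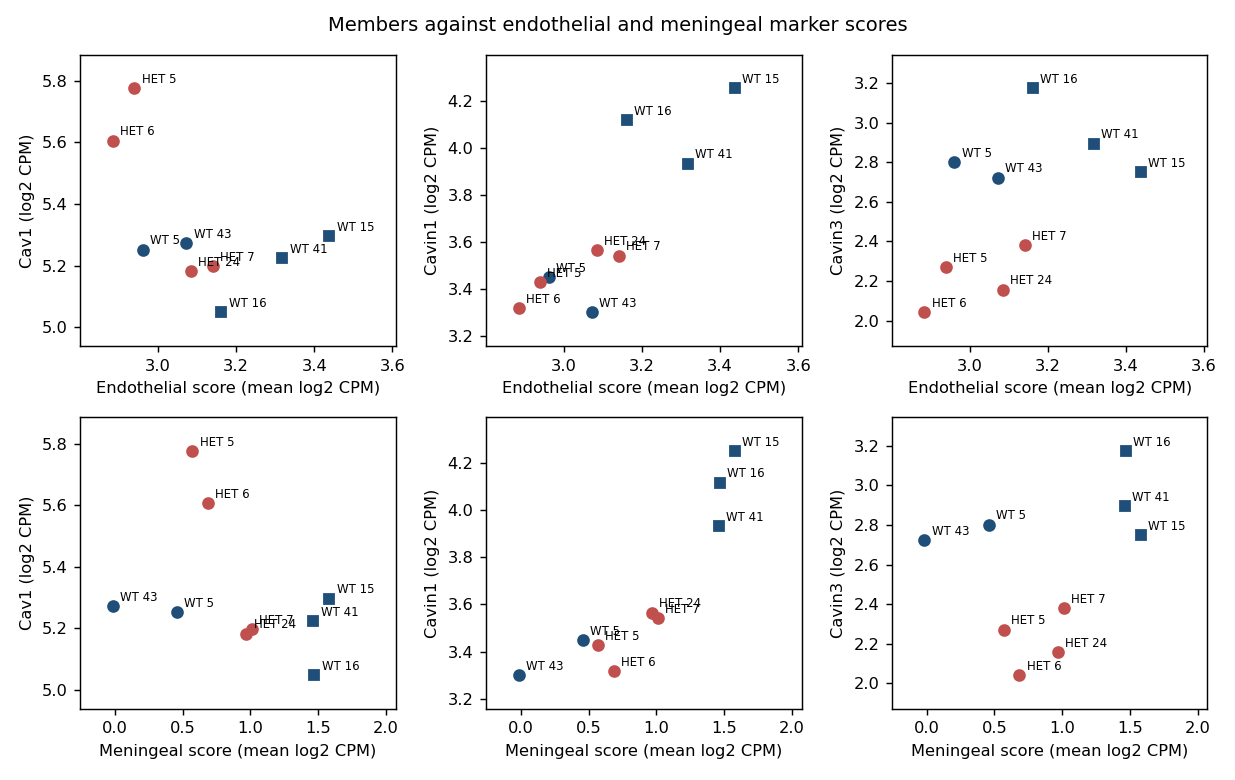
Log2 CPM of Cav1, Cavin1 and Cavin3 (vertical axes) against the endothelial score (top) and the meningeal score (bottom), each the mean log2 CPM of its marker list, for WT (blue) and HET (red) embryos. Squares are WT 15, WT 16 and WT 41, which have the highest Cavin1 and the highest meningeal scores, whereas the HET embryos have the lowest Cavin3 at endothelial scores of 2.88 to 3.14.

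With the endothelial score as a covariate in edgeR, the log2 fold change of Cavin3 was −0.63 (adjusted p = 0.173) and that of Cavin1 went from −0.39 to −0.09. With the meningeal score Cavin3 was −0.64 (adjusted p = 0.105) and Cavin1 −0.25. With the choroid plexus score they were −0.61 (adjusted p = 0.228) and −0.11, and with the mural score −0.67 (adjusted p = 0.134) and −0.32. The size of the Cavin3 difference was therefore nearly the same with each of these scores in the fit, whereas that of Cavin1 was smaller in all 4. Cavin2 became positive in each of them, between 0.11 and 0.42, and Cav1 stayed between 0.16 and 0.21.

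Subtracting the endothelial score from each member within an embryo gave differences, HET minus WT, of 0.40 for Cav1, 0.27 for Cav2, −0.17 for Cavin1, 0.24 for Cavin2 and −0.48 for Cavin3 on the log2 scale. None passed after adjustment over 5 genes (adjusted p = 0.258, 0.304, 0.347, 0.444 and 0.119, exact permutation test). The unadjusted p of Cavin3 was 0.0238 (exact permutation test). Relative to the meningeal score, Cavin3 differed by −0.47 and Cav1 by 0.41, and no member passed (adjusted p = 0.516 for all 5, exact permutation test).

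The astroglia score was 5.17 in WT and 4.76 in HET embryos, a difference that did not pass after adjustment (−0.41, p = 0.0397, adjusted p = 0.317, exact permutation test). The summed CPM of this list overlapped between the groups, at 676 to 867 in WT and 679 to 777 in HET embryos. Aldh1l1, a folate enzyme used as an astrocyte marker, was at 15.3 to 31.7 CPM in WT and 2.79 to 18.5 CPM in HET embryos. Aqp4, the water channel of astrocyte endfeet around vessels, was at 1.17 to 2.02 CPM in WT and 0.163 to 1.07 CPM in HET embryos. Its counts were low, down to 7 in an embryo, and the groups were close at 1.07 and 1.17 CPM. Such a separation was shown by 1.07% of tested genes in this direction. Aqp4 was named after its values were seen, and not every astroglia marker was lower. Of the 8, 3 had a positive fold change, the median was −0.10 and none was called, and Aldoc was at 159 to 208 CPM in WT and 182 to 253 CPM in HET embryos. Relative to this score, Cavin3 differed by −0.25 (adjusted p = 0.357) and Cav1 by 0.63 (adjusted p = 0.119, exact permutation test). With the score as a covariate in edgeR, Cavin3 was −0.67 (adjusted p = 0.159) and Cav1 0.03. The 2 ways of setting astroglia against Cavin3 thus gave different sizes, and the part of astroglia in the result was not tested further. Blood, microglia and neuron scores differed by 0.02, 0.02 and 0.04 (adjusted p = 0.960, 0.898 and 0.898, exact permutation test).

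The other genes of the caveola were taken from a list of 19 partners, of which 18 were tested. None was called by edgeR, beside 0.14% of all genes, and 1, Plvap, had an unadjusted p under 0.05, beside 5.42% of all genes. Of the 18, 12 had a positive and 6 a negative fold change, with a median of 0.04. Among the remaining structural proteins, Cav3, the muscle caveolin, was listed with 1 to 4 counts in WT and 0 in HET embryos, at the limit of detection, and was not tested. Cavin4, the muscle cavin, had means of 3.12 ± 0.498 CPM (SD, n = 5) for WT and 3.65 ± 0.152 CPM (SD, n = 4) for HET (log2 fold change 0.23, adjusted p = 0.911, edgeR).

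Of the genes for proteins at the neck of the pit and their relatives, none was called. Ehd2, the ATPase that anchors caveolae, had a log2 fold change of −0.16, whereas its relatives Ehd1, Ehd3 and Ehd4 had 0.01, −0.02 and 0.09. Of the membrane-bending pacsins, Pacsin1 had 0.36, Pacsin2 0.12 and Pacsin3 −0.0036, and the scission GTPase Dnm2 had 0.08. The flotillins Flot1 and Flot2, which mark other membrane domains, had 0.05 and 0.03. Adjusted p in edgeR was at least 0.910 for all of them. Among protein kinases C, Prkca had a log2 fold change of 0.30 and Prkcd, a known partner of Cavin3, 0.10 (adjusted p = 0.911 for both, edgeR).

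In endothelial cells, Plvap forms the diaphragm of caveolae and fenestrae and is low where a blood-brain barrier is formed. It had 2.26 CPM in WT 5, 5.24 in WT 15, 5.20 in WT 16, 3.94 in WT 41 and 1.48 in WT 43. It had 1.91 CPM in HET 5, 1.68 in HET 6, 1.96 in HET 7 and 2.63 in HET 24. The WT embryos with the most *Ttr* again held the highest values, and WT 43 was below every HET embryo. The log2 fold change was −0.82 (SE 0.34), with an unadjusted p of 0.0359 and an adjusted p of 0.909 in edgeR. Ror1, a receptor reported to hold caveolin and Cavin1 together, had means of 1.79 ± 0.815 CPM (SD, n = 5) for WT and 1.18 ± 0.192 CPM (SD, n = 4) for HET, with WT 15 and WT 16 highest at 2.65 and 2.48 CPM.

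Mfsd2a, which restrains caveolae at the barrier, had means of 38.8 ± 3.52 CPM (SD, n = 5) for WT and 40.3 ± 4.61 CPM (SD, n = 4) for HET (log2 fold change 0.05, adjusted p = 0.940, edgeR). Nos3, the endothelial nitric oxide synthase held in check by Cav1, was at 5.17 ± 0.399 and 4.82 ± 0.557 CPM (log2 fold change −0.10, adjusted p = 0.931, edgeR), with 32.3% of its exonic bases overlapped by opposite-strand genes. Nostrin, which moves that enzyme, had a log2 fold change of 0.03 (adjusted p = 0.992, edgeR).

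For each member the 5 tested genes with the most similar pattern were taken by Pearson's r of log2 CPM over the 9 embryos. They were the highest of all tested genes by choice, so the values are given as a description, without a p. Those nearest to Cav1 were Dzip1l, Fam129a, Ankle2, Setd7 and Trmt1l (r from 0.96 to 0.95). Those nearest to Cav2 were Zfyve16, Zfp111, Atxn3, Zfx and Efcab14 (0.95 to 0.93). No gene was in both lists. Cavin1 was most like Plvap (0.98), the diaphragm gene described above, followed by Ppp1r3b, Ctsh, Ctsd and Ggh (each 0.97), of which Ctsh and Ctsd encode lysosomal cathepsins. Cavin2 was most like Xlr3b (0.98), Gm44220, Emp2, Pla2g7 and Sdcbp2 (0.96 to 0.95). Counts of Xlr3b, Gm44220 and Sdcbp2 were low, down to 0, 3 and 12 in an embryo. Among the genes most like Cavin3 were Rraga (0.97), a GTPase of amino acid sensing, Rwdd3 and Mt1 (each 0.96) and Vhl (0.95), the factor that marks hypoxia-inducible factors for degradation.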

How the data were processed

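Forebrain RNA of 5 WT and 4 HET embryos was captured by poly(A), made into TruSeq libraries and sequenced on an Illumina HiSeq instrument, with a single read of each pair used. Per the labels and the methods of the study, the authors aligned reads with STAR 2.7.9a to GRCm38.p6 and counted them with featureCounts of Subread on GENCODE annotation. The deposited values are counts of reads per gene, left without normalization by the authors, for 55401 genes and 1 column per embryo. The strand setting and the handling of reads with several alignments are not given in the sources used here, and reads shared between genes may be lost or split by them. No pair of samples had identical counts, and no column was left unmapped.

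Counts were analysed in R 4.3.3 with edgeR 4.0.16 (filterByExpr with a minimum count of 10, TMM scaling, quasi-likelihood test without covariates, Benjamini-Hochberg adjustment over 17818 genes, threshold 0.05). The median total was 45845845 counts. The sources name no molecular identifiers, so PCR duplicates may remain in the counts. DESeq2 1.42.0 and limma 3.58.1 (voom) were alternatives, as were DESeq2 size factors, upper-quartile scaling, other filters, marker scores as covariates, the embryos with *Ttr* under 100 CPM and leaving out each embryo. Fits with the astroglia score, without WT 15, WT 16 and WT 41 together, and within the other 6 embryos were added after seeing the data. Log2 CPM used a prior count of 2. Single values were compared by exact two-sided permutation tests. The code was tested on simulated data. Gene coordinates and exon lengths came from GENCODE M21, also on GRCm38, which lists 55141 of the 55401 identifiers, and promoters from RefSeq.

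The genes named were the 5 members, *Npas3*, *Ttr*, 19 caveola partners, genes whose exons overlap a member, the 5 genes most similar to each member (1 of those for Cavin3 is not reported here), and the defining markers of each cell type. Other markers named with values, such as Aqp4, Aldoc, Tagln and Kl, were chosen after their values were seen. The members and all lists (caveola partners, endothelial, mural, meningeal, choroid plexus, blood, microglia, astroglia and neuron markers) were chosen with earlier results of these data known.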

Additional observations from a re-analysis of the deposited data

Results flagged for a closer look

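Of 64 groups of embryos examined for an extreme value with Dixon's criterion, 3 were flagged, where chance gives about 3.2 (1 in 20). Ehd1, a relative of the caveolar anchor Ehd2, was at 19.4 CPM in WT 5 and at 15.4 to 16.3 CPM in the other WT embryos. Ehd1 was at 17.7 CPM in HET 7 and at 16.1 to 16.3 CPM in the other HET embryos. *Npas3* was at 34.1 CPM in HET 7 and at 27.8 to 28.2 CPM in the other HET embryos. No caveolin or cavin gene was flagged in either group.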

How the results depend on the processing

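In the alternatives that were run, Cav1 stayed positive in 22 of 22, Cav2 in 21 and Cavin3 negative in 22, and the cause of the changes below was not tested. Alternatives added after seeing the data were the astroglia score and the removal of WT 15, WT 16 and WT 41. Genes called higher in HET numbered 5 in edgeR, 21 with DESeq2, 2 with the choroid plexus score, 3 with *Ttr* under 100 CPM and 45 with the astroglia score. Genes called lower numbered 20, with 64 in DESeq2, 12 with *Ttr* under 100 CPM and 12 with the astroglia score. Leaving out 1 embryo gave 0 to 5 higher (0 without HET 5 or HET 7) and 13 to 20 lower genes (13 without HET 6).

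Cavin3 was called by DESeq2 alone (−0.66). Cav2 turned to −0.11 with the astroglia score. Cavin1 turned to 0.057 with *Ttr* under 100 CPM and 0.089 without WT 15, WT 16 and WT 41. Cavin2, at −0.02, turned to 0.30 with the choroid plexus, 0.42 with the endothelial, 0.11 with the mural and 0.11 with the meningeal score, 0.63 with *Ttr* under 100 CPM, 0.54 without WT 15, WT 16 and WT 41, and 0.041 in limma-voom. Leaving out 1 embryo gave −0.20 to 0.13 for Cavin2, 0.12 to 0.33 for Cav1, 0.04 to 0.17 for Cav2 and −0.50 to −0.27 for Cavin1.

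With *Ttr* under 100 CPM, Cavin3 minus Cav1, Cav2 and Cavin2 was −0.80, −0.73 and −1.23, where p cannot go below 0.1 (exact permutation test). Leaving out 1 embryo gave −1.01 to −0.76, −0.86 to −0.63 and −0.89 to −0.48, and −0.45 to −0.22 against Cavin1. With *Ttr* under 100 CPM, Cavin1 minus the endothelial score was 0.083, Cav1 and Cav2 minus the meningeal score −0.27 and −0.33, and the meningeal and choroid plexus scores 0.53 and 0.65. Leaving out 1 embryo moved Cavin1 minus the astroglia score from −0.083 to 0.19, and the blood, microglia and neuron scores from −0.16 to 0.16, −0.021 to 0.089 and −0.032 to 0.11. For Cav1 and Cav2 minus the astroglia score it gave 0.45 to 0.82 and 0.37 to 0.66, both highest without HET 7, with an adjusted p of 0.0446 there (exact permutation test).

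Without the embryos farthest from the median score, r with the endothelial score was −0.83 for Cav1 and 0.66 for Cavin1, and with the mural score 0.051 for Cav1, 0.20 for Cav2 and −0.16 for Cavin3. Within the 6 embryos other than WT 15, WT 16 and WT 41, r was 0.54 for Cavin1 with the endothelial score, and 0.79 for Cavin1 and −0.66 for Cavin3 with the meningeal score. With coding length Cavin1 took place 3 and Cavin3 place 4, and all neighbours differed.

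No paired analysis was possible because the litter of each embryo is not given and the embryo numbers are not said to mark pairs. With 5 against 4 embryos and a common biological coefficient of variation of 16.8%, small changes of genes with as wide a spread between embryos as Cavin2 (SE 0.26) were not detectable.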
